A study of Mus musculus with 14 samples.

Results

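The genes described here are 32 transcripts that mark macrophages and other leukocytes, chosen by symbol from the 43472 genes of the expression tables of wounded mouse fibroblast cultures. All 32 symbols were found, with Adgre1 listed under its older symbol Emr1. They cover pan-leukocyte surface and cytoskeletal genes, the integrins of phagocytes, the factor and receptors that define a macrophage, Fc receptors and their adaptors, the 3 chains of complement C1q, MHC class II, and lysosomal and secreted products. The question was whether they moved together from library to library, as the transcripts of a share of resident macrophages would.

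Macrophages live in the dermis beside fibroblasts and depend on signalling through the receptor Csf1r by its ligands CSF1 and IL-34, which stromal cells make. The factor PU.1, encoded by Spi1, switches on many macrophage genes by binding purine-rich sites near their starts. Resident skin macrophages take up debris through Fc and scavenger receptors, make C1q and digest what they engulf in lysosomes rich in lysozyme and cathepsins.

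RNA was sequenced from primary fibroblasts of the tail tip of C57BL/6 mice, freed by collagenase digestion and cultured. The methods read here, from a later paper that reuses these data, name no step that purified them. In the scratch assay used here, a gap is scraped into the cell layer. All cultures were wounded in this way, and were left untreated or given AMG (autologous micrograft). AMG was an extract of mechanically disrupted mouse skin, passed through a filter and diluted 1:10 in growth medium. That later paper also describes a centrifugation to remove cells and debris from the extract, while the labels describe a filtered suspension. Whether skin cells or their RNA reached the cultures with AMG was not tested. There were 4 untreated and 4 AMG-treated libraries at 5 h (replicates 1 to 4), and 1 untreated and 1 AMG-treated library each at 1, 12 and 24 h (replicate 1).

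Between 12545537 and 34696529 reads per library were assigned to genes. The 10 fibroblast markers, such as collagens and PDGF receptors, were above the floor of 3 reads in every library and summed to 12813 to 34307 CPM (reads per 1000000 reads assigned to genes), against 21.9 to 128 CPM for the 32 leukocyte genes. Replicate 1 was scaled in a table of its own, so normalised counts were compared only within a table. In replicate 1, ribosomal protein genes took 6.34% of the reads of the untreated library at 5 h and 4.62% of the AMG-treated library at 1 h, against 2.02% to 3.09% in the other 12 libraries. In bulk RNA, fewer cells of a type and less RNA per cell cannot be told apart.

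Promoters of 6 members whose values carry the results are shown because they include members that were high and low together (Itgam, C1qb, C1qc, Laptm5 and Lyz2) and the 1 member that went its own way with treatment (Mrc1). Each covers 250 bases before and 50 bases after a start site in RefSeq, on the GRCm38.p6 build, 5′ to 3′ on the strand of the gene, with the PU box GAGGAA, the core of a PU.1 site, in capitals on either strand.
Itgam, chr7:128062390-128062689, plus strand: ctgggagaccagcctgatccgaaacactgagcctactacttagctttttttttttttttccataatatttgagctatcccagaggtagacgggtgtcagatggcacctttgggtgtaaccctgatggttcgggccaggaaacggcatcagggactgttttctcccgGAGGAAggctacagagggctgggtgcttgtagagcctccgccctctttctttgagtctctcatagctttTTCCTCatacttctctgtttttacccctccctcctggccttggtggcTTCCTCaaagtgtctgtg
C1qb, chr4:136886151-136886450, minus strand: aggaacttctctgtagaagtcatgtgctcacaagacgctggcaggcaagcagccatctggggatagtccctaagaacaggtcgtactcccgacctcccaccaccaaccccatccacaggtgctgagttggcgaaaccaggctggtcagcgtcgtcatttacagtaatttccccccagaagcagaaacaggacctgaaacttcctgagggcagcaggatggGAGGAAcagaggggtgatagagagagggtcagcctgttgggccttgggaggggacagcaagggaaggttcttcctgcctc
C1qc, chr4:136892865-136893164, minus strand: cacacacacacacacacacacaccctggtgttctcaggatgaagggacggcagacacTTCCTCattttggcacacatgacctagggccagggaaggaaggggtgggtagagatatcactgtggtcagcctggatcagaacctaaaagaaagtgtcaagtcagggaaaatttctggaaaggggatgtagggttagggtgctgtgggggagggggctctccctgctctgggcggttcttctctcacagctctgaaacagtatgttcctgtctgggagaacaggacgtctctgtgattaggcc
Laptm5, chr4:130913066-130913365, plus strand: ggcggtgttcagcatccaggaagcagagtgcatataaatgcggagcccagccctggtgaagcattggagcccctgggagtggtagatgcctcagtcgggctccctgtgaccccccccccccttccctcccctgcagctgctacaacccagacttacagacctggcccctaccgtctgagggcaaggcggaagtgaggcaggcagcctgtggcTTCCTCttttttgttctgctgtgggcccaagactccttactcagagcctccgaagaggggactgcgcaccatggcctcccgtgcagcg
Lyz2, chr10:117282223-117282522, minus strand: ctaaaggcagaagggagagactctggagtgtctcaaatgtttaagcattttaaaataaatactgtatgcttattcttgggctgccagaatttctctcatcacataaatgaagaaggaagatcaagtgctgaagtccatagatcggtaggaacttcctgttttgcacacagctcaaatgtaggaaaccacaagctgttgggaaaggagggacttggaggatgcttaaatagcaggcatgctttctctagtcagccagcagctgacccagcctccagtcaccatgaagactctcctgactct
Mrc1, chr2:14229164-14229463, plus strand: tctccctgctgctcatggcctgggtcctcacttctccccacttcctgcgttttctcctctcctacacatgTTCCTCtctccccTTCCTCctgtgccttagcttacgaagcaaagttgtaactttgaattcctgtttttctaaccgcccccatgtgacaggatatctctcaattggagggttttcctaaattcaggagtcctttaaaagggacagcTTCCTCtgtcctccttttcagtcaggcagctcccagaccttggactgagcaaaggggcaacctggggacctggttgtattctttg

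Promoters were found for 23 members. The PU box, read on both strands, stood in 16 of their 26 promoter windows (61.5%), against 28.3% of all 32851 windows of this length. Mrc1 and Itgam each held 3 copies, C1qb, C1qc and Laptm5 held 1 each, and the window of Lyz2 held none. The CCAAT box (CCAAT) stood in 42.3% of the members' windows and in 37.4% of all windows. The interferon gamma activated site TTCNNNGAA stood in 1 of the 26 windows, that of Fcgr1, and in 8.3% of all windows. These matches describe letters in a window and do not show binding.

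At 5 h, most of these genes were higher in replicate 4 than in replicates 2 and 3. In replicates 2 and 3, 14 to 25 of the 32 members had at most 3 reads in a library, against 5 and 6 members in the libraries of replicate 4. For 23 of the 32 members, both libraries of replicate 4 were above the other 4 libraries, against 5.69% of the 21663 genes with a read. The same held for replicate 2 in 1 member (background 6.04%) and for replicate 3 in 1 member (background 12.8%). In 14 members, the lower replicate 4 library was more than 5 times the highest of the other 4, which was so for 0.831% of genes with a read.

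The replicate number was tested as a factor beside treatment (limma F test, Benjamini-Hochberg adjustment over all genes tested). To keep replicates 2 to 4 from choosing the genes, this test took those with a mean of at least 10 in the table of replicate 1, which included 22 members. It called 15 of these 22, where 25.6% of all 13498 genes were called. With edgeR on the recovered reads it called 17 of 22, where 28.9% of all genes were called. This test was added after the levels had been seen, and the labels do not say what a replicate number shares. Of the 10 fibroblast markers 4 were called with limma and 6 with edgeR, and none had both replicate 4 libraries above the other 4.

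**Figure D1:**
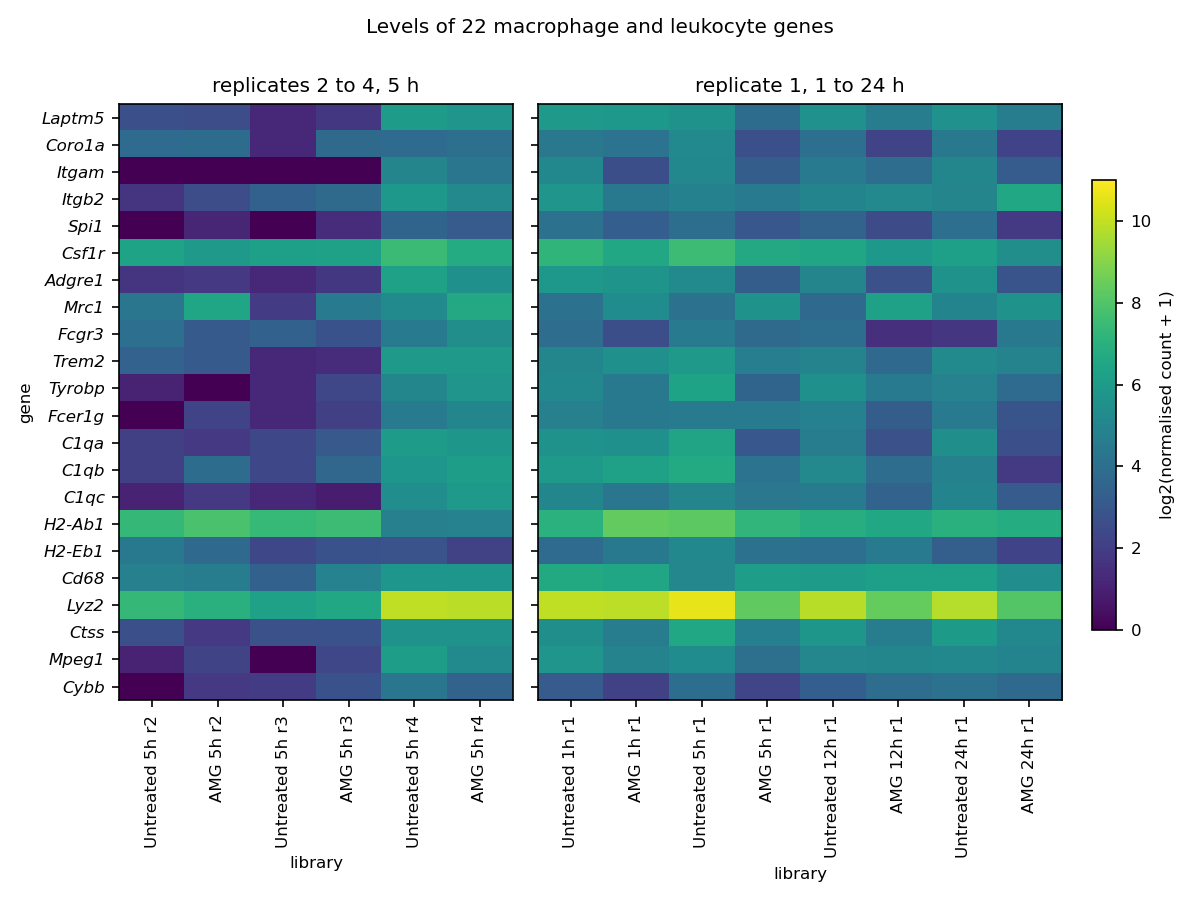
Levels of the 22 members whose mean reached 10 normalised counts in the table of replicate 1, as log2(normalised count + 1), with 1 column per library and 1 row per gene. In the left block the 2 columns of replicate 4 are brighter than those of replicates 2 and 3 in most rows, with H2-Ab1 the opposite. In the right block the AMG-treated columns at 5, 12 and 24 h are darker than their untreated neighbours in most rows.

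Among the pan-leukocyte genes, Laptm5, a lysosomal membrane protein of blood cells, had 5.5, 1.39 and 64.4 normalised counts in untreated replicates 2, 3 and 4. It had 5.09, 2.46 and 52.0 in the AMG-treated libraries. Both libraries of replicate 4 stood far above the rest, and the replicate number was called (limma adjusted p = 0.00207). Ptprc, the CD45 phosphatase that every nucleated blood cell carries, was at 11.9 and 11.3 in replicate 4 and at 0 to 1.39 in replicates 2 and 3. Cd52 had 0 reads in all 4 libraries of replicates 2 and 3. Coro1a, an actin-binding protein of leukocytes, did not follow. It had 13.2, 1.39 and 13.5 in the untreated libraries and 14.0, 13.1 and 15.8 with AMG, so that replicates overlapped.

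Itgam and Itgb2 encode the 2 chains of the complement receptor CR3 of phagocytes. Itgam had no read in replicates 2 and 3, and 31.4 (untreated) and 19.2 (AMG) normalised counts in replicate 4. Itgb2 had 2.20, 9.75 and 57.3 in the untreated libraries and 5.09, 13.1 and 35 with AMG. Both genes were called for the replicate number (limma adjusted p = 0.00433 and 0.00863).

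Of the genes that define a macrophage, Adgre1, the F4/80 antigen, gave the sharpest split. It had 2.20, 1.39 and 77.3 normalised counts without AMG and 2.54, 2.46 and 45.2 with AMG (adjusted p = 0.00225 for the replicate number). Spi1 had 0, 0 and 10.8 in the untreated libraries and 1.27, 1.64 and 7.91 with AMG, with an adjusted p of 0.0542 in limma and 0.0470 in edgeR. Csf1r was different, because it was well above the floor in all 6 libraries. It had 81.4, 73.8 and 182 normalised counts without AMG and 59.8, 77.1 and 107 with AMG. Replicate 4 was again highest, and the replicate number was called with edgeR (adjusted p = 0.0259) but not with limma (adjusted p = 0.0558). Cd163, a scavenger receptor of resident macrophages, and Aif1, an actin-bundling protein of microglia and macrophages, stayed under a mean of 10 in both tables. In replicate 4, Cd163 had 1.08 and 0 normalised counts and Aif1 had 1.08 and 5.65.

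The receptors and adaptors that signal through immunoreceptor motifs moved with Adgre1. Tyrobp, the DAP12 adaptor, had 1.10, 1.39 and 32.5 normalised counts without AMG and 0, 4.10 and 52.0 with AMG. Trem2, a lipid receptor that signals through DAP12, had 9.90, 1.39 and 60.0 without AMG and 7.63, 1.64 and 61.0 with AMG. For Fcer1g, the gamma chain of Fc receptors, the values were 0, 1.39 and 21.6 without AMG and 3.82, 3.28 and 31.6 with AMG. All 3 were called for the replicate number (limma adjusted p = 0.00502, 0.00138 and 0.0121). Fcgr3, a low-affinity IgG receptor, had 15.4, 9.75 and 22.2 without AMG and 7.63, 5.74 and 42.9 with AMG and was not called (adjusted p = 0.0769). Fcgr1, the high-affinity IgG receptor, was at 0.541 and 2.26 in replicate 4 and had no read in replicates 2 and 3.

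The C1q genes lie side by side on chromosome 4 and encode the 3 chains of C1q, a part of the first component of complement. C1qa had 3.30, 4.18 and 63.8 normalised counts without AMG and 2.54, 7.38 and 55.3 with AMG. C1qb, whose promoter is shown above, had 3.30, 4.18 and 54.6 without AMG and 14.0, 11.5 and 67.8 with AMG. For C1qc these were 1.10, 1.39 and 41.1 without AMG and 2.54, 0.820 and 58.7 with AMG. In each chain both libraries of replicate 4 were well above the other 4 (limma adjusted p = 0.00277, 0.00649 and 0.00246).

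Lyz2, the lysozyme of macrophages and granulocytes, had the highest mean of the members over the 6 libraries, although H2-Ab1 was above it in all 4 libraries of replicates 2 and 3. It had 158, 76.6 and 978 normalised counts in the untreated libraries and 127, 95.9 and 916 with AMG, and the lowest adjusted p of the set for the replicate number (limma 8.8e-05). As RPKM, which is the CPM divided by the exon length in kilobases, the level of Lyz2 was 39.6 in untreated replicate 4, against 3.27 for C1qa, 1.68 for Csf1r and 1.27 for Adgre1 in that library. Ctss, a cathepsin of antigen-presenting cells, had 5.5, 5.57 and 48.1 normalised counts without AMG and 2.54, 5.74 and 49.7 with AMG. Mpeg1, a pore-forming protein that acts on engulfed bacteria, had 1.10, 0 and 71.4 without AMG and 3.82, 4.10 and 36.1 with AMG. Both were called (adjusted p = 0.00473 and 0.00971). Cd68, a lysosomal glycoprotein, was present in all 6 libraries, at 9.75 to 28.7 in replicates 2 and 3 and at 54.1 and 54.2 in replicate 4, and was not called (adjusted p = 0.0767). Cybb, the catalytic chain of the phagocyte oxidase, was at 0 to 5.74 and at 18.9 and 10.2 and was not called either (adjusted p = 0.0558). Pf4, a chemokine of platelets and of some macrophages, was at 0.820 to 3.82 in replicates 2 and 3 and at 13.5 and 26.0 in replicate 4, while Ly86 did not pass 3.28 in any of the 6 libraries.

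The 1 MHC class II gene with a mean of at least 10 in these libraries did not go with the rest. H2-Ab1, the beta chain of I-A, had 161, 163 and 27.0 normalised counts without AMG and 229, 187 and 28.2 with AMG. It was thus the 1 member for which both libraries of replicate 4 were below the other 4 (limma adjusted p = 0.000381). Its alpha-chain partner H2-Aa had no read in any of these 6 libraries, the invariant chain Cd74 was at 0, 0 and 7.57 without AMG and at 6.36, 4.10 and 3.39 with AMG, and H2-Eb1 was at 3.39 to 20.9. Ciita, the factor that switches on the class II genes in antigen-presenting cells, had no read in these 6 libraries either. Among the antigen-loading genes, H2-DMa was at 71.0 to 266 and H2-DMb1 at 84.4 to 239.

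**Figure D2:**
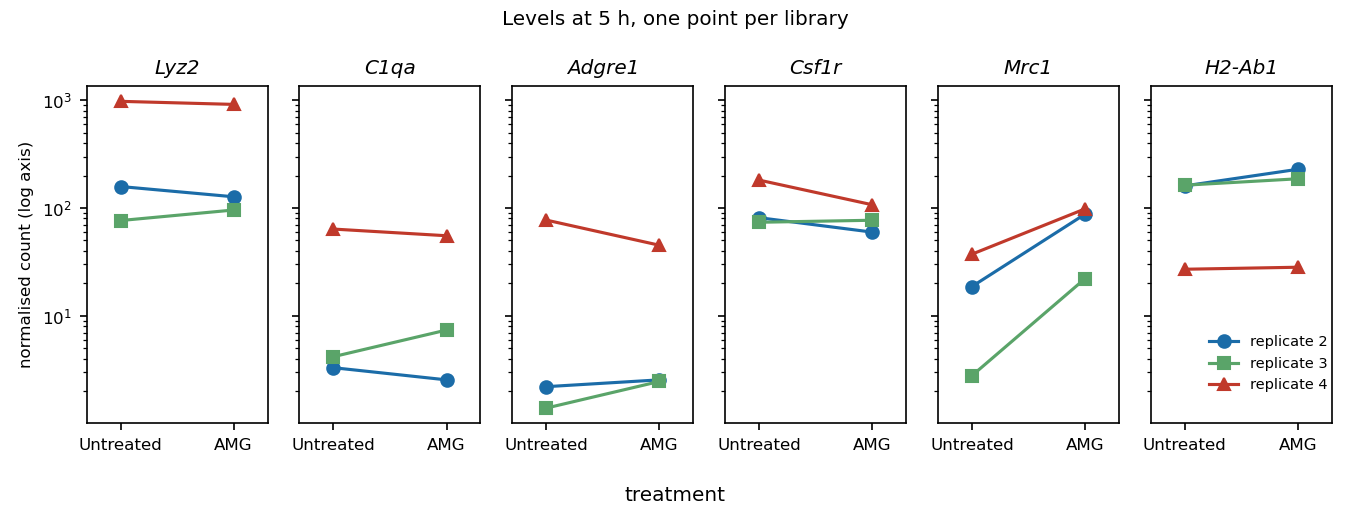
Normalised counts (log axis) of 6 members in the untreated and AMG-treated libraries at 5 h, with 1 point per library and a line joining libraries of the same replicate number. Replicate 4 lies above replicates 2 and 3 for Lyz2, C1qa, Adgre1 and Csf1r and below them for H2-Ab1, and the 3 lines of Mrc1 all slope upward.

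Summed over the 32 members, replicates 2 and 3 held 21.9 to 34.1 CPM and replicate 4 held 108 (untreated) and 97.8 (AMG). Lyz2, H2-Ab1 and Csf1r made up much of the low sums. Without these 3, replicates 2 and 3 held 3.99 to 11.7 CPM and replicate 4 held 44.8 and 44.3. Replicate 1 held 45.3 to 128 in its 8 libraries, all above replicates 2 and 3. The 12 genes of T, NK and B lymphocytes summed to at most 0.651 CPM in any library and the 5 red blood cell genes to at most 0.511. The 6 mast cell genes summed to at most 0.239 CPM in replicates 2 to 4 and to 1.18 to 8.93 in replicate 1, where Cma1, a mast cell chymase, held most of the reads while Cpa3, Tpsb2 and Fcer1a had none in any library. The 9 neutrophil genes summed to 0.367 to 3.10 CPM in replicates 2 and 3, to 0.403 and 2.30 in replicate 4 and to 0.610 to 16.4 in replicate 1. The highest of these sums was in the AMG-treated library at 24 h, with S100a8 at 8.85 CPM and Camp at 6.05, beside 46.5 CPM for the 32 members in that library. The neutrophil genes Elane and Ngp had no read in any library, and Csf3r had at most 1.

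**Figure D3:**
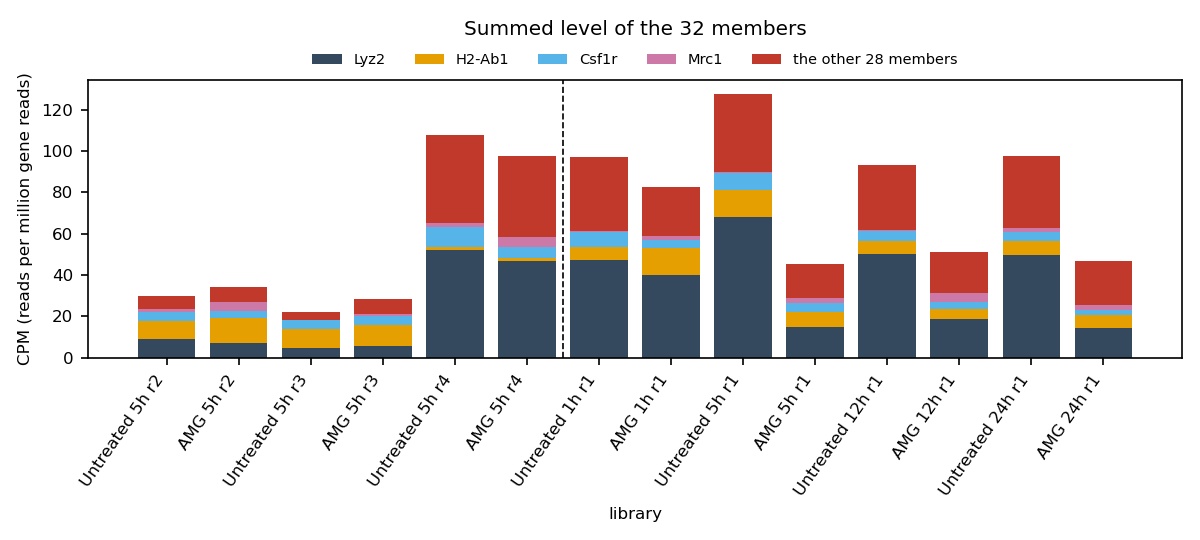
Summed CPM of the 32 members in each library, stacked by Lyz2, H2-Ab1, Csf1r, Mrc1 and the remaining members, with a dashed line between replicates 2 to 4 and replicate 1. The sum is 108 and 97.8 in replicate 4 against at most 34.1 in replicates 2 and 3, and in replicate 1 the AMG-treated bars at 5, 12 and 24 h stand below the untreated ones.

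Whether AMG changed these genes at 5 h was tested on replicates 2 to 4 over the 13096 genes whose mean normalised count reached 10, among them 18 members. None of the 18 passed the test (limma, adjusted p under 0.05), where 1.24% of all tested genes did. At an unadjusted p under 0.05 there were also 0 members with limma and with edgeR and 1 with DESeq2. The median log2 fold change of the 18 was 0.22, beside -0.018 for all tested genes. Within the pairs of the same replicate number the median log2 ratio was -0.0078, 0.53 and 0.034 in replicates 2, 3 and 4. In untreated replicate 3, 25 of the 32 members had at most 3 reads, with 1 read each for Laptm5, Adgre1, Trem2 and Tyrobp. The ratios of such genes rest on few reads and on the added count of 1. The standard errors were wide, as in Lyz2 (log2 fold change -0.029, SE 1.14), C1qa (0.071, SE 1.39) and Adgre1 (-0.028, SE 1.63) over replicates that differed as described above. The median turned to -0.82 without the AMG-treated library of replicate 4 and reached 1.36 without its untreated library. With both libraries of replicate 4 left out it was 0.28 and 0 of 18 members were called.

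With the replicate number as a block, 37.2% of all tested genes were called but only 1 of the 18 members. This was Mrc1, the mannose receptor CD206, which binds sugars on microbes and glycoproteins. Its normalised counts were 18.7, 2.78 and 37.3 in untreated replicates 2, 3 and 4 and 87.8, 22.1 and 98.3 in the AMG-treated ones. Each AMG-treated library was above its untreated partner, although the groups overlapped. The log2 fold change was 2.05 (SE 0.96), with an adjusted p of 0.253 without the block, 0.00273 with it in limma and 0.00332 with it in edgeR. In replicate 1, Mrc1 had 16.7, 16.4, 12.4 and 30.6 normalised counts without AMG at the 4 times from 1 to 24 h, and 40.0, 49.5, 77.2 and 48.6 with AMG. Mrc1 was higher with AMG in all 7 pairs, and it was the 1 member among 22 for which that was so. No member was lower in all 7 pairs, though Itgam was lower in 5 and had no read in the pairs of replicates 2 and 3. The share of all genes that were higher, or lower, in all 7 pairs was not counted, so these member counts have no background.

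Within replicate 4, where macrophage transcripts were plentiful, treated and untreated sums were close. The log2 ratio of the summed normalised counts was -0.075, with a 95% interval from -0.16 to 0.0076 that covers counting error only. For 10 of the 18 members, the exact interval of the gene's own ratio held the ratio of the other members. Mrc1, Fcgr3, Tyrobp and C1qc were above it, and Itgb2, Csf1r, Adgre1 and Mpeg1 were below it. Without replicates of that pair, these differences have no check beyond counting.

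Replicate 1 gave another picture, from 1 library per treatment and time and so with no replicate check and no test. Lyz2 had 990, 1541, 899 and 871 normalised counts at 1, 5, 12 and 24 h without AMG and 962, 315, 336 and 266 with AMG. C1qb was at 58.9, 103, 35.1 and 27.6 without AMG and at 76.5, 17.0, 14.3 and 2.70 with AMG. Adgre1 was at 57.1, 36.1, 30.7 and 48.2 without AMG and at 50.4, 8.51, 5.72 and 6.30 with AMG. For these 3 genes the treated library was close to or above the untreated one at 1 h and below it at the 3 later times.

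Over the 22 members with a mean of at least 10 in this table, the median log2 ratio of AMG to untreated was -0.27, -1.26, -0.98 and -0.98 at 1, 5, 12 and 24 h, while the median of all 13498 genes lay between -0.064 and 0.017. Lower values with AMG were seen in 17, 19, 17 and 19 of the 22, against 53.0%, 50.2%, 51.0% and 48.4% of all genes. A log2 ratio below -1 was found for 3 members at 1 h, where 10.7% of all genes passed this, for 13 at 5 h (12.6% of genes), for 9 at 12 h (6.9% of genes) and for 11 at 24 h (8.05% of genes). At 5, 12 and 24 h alike, 15 of the 22 were lower, but the share of all genes for which this held was not counted. The 2 libraries with a high ribosomal protein share are the untreated one at 5 h and the AMG-treated one at 1 h. Across genes outside the lists, the log2 ratio went with exon length with a Spearman correlation of -0.43, 0.42, 0.17 and -0.21 at 1, 5, 12 and 24 h. After removal of that trend, a step added after the data were seen, the medians of the members were -0.81, -1.33, -0.93 and -1.16. The same step turned the medians of replicates 2, 3 and 4 at 5 h to -0.12, 0.49 and -0.29, with 10, 3 and 13 of the 18 members lower in place of 9, 2 and 7.

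Other cell markers also moved in these pairs, and their part in the result was not tested. The summed normalised counts at 5, 12 and 24 h of the endothelial markers were 57.4, 111 and 105 without AMG and 34.0, 53.4 and 50.4 with AMG. Those of the mast cell markers were 161, 82.0 and 40.6 without and 74.3, 56.2 and 21.6 with AMG. Most of this sum was Cma1, at 154, 74.6 and 37.5 without and 61.9, 48.6 and 13.5 with AMG. Cma1 was highest in the 2 libraries with the high ribosomal protein share, at 203 in the AMG-treated one at 1 h. Ms4a2 went the other way, at 0, 2.20 and 1.53 without and 2.32, 4.76 and 6.30 with AMG. Mcpt4 was lower with AMG only at 12 h of these 3 times. The skeletal muscle markers summed to 2108, 984 and 760 without and to 1882, 468 and 293 with AMG. The sums of these 3 lists were lower with AMG at each of the 3 times. The neutrophil markers were at 109.8, 18.3 and 10.7 without and at 63.4, 83.9 and 299.7 with AMG, and were thus higher at 12 and 24 h. A wider list of 52 myeloid genes summed to 19279, 10209 and 9912 without and to 12242, 12222 and 19620 with AMG. That sum was lower with AMG at 5 h and higher at 12 and 24 h. Its genes went both ways, with log2 ratios of 1.28, 2.49 and 2.99 for Cd14 and -2.61, -2.43 and -1.10 for Lyve1. The fibroblast markers summed to 323769, 385263 and 396751 without and to 348259, 278121 and 234467 with AMG, lower at 12 and 24 h, where the log2 ratio of Col1a1 was -0.97 and -1.67.

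Of the members that went against this direction in replicate 1, Mrc1 was higher with AMG at all 4 times. Cd68 had 101, 32.8, 67.3 and 73.5 normalised counts without AMG and 90.4, 70.4, 73.4 and 40.5 with AMG, and was thus higher at 5 and 12 h. Itgb2 was at 31.4 and 91.8 and Fcgr3 at 2.30 and 20.7 at 24 h (untreated and AMG), both higher with AMG. Csf1r was lower at all 4 times, at 147, 187, 88.5 and 72.0 without AMG and 95.6, 99.0, 58.1 and 42.3 with AMG, with log2 ratios no lower than -0.91. H2-Ab1 was at 130, 297, 113 and 124 without AMG and at 323, 149, 96.3 and 110 with AMG, so that it was high in the 2 libraries with the high ribosomal protein share.

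**Figure D4:**
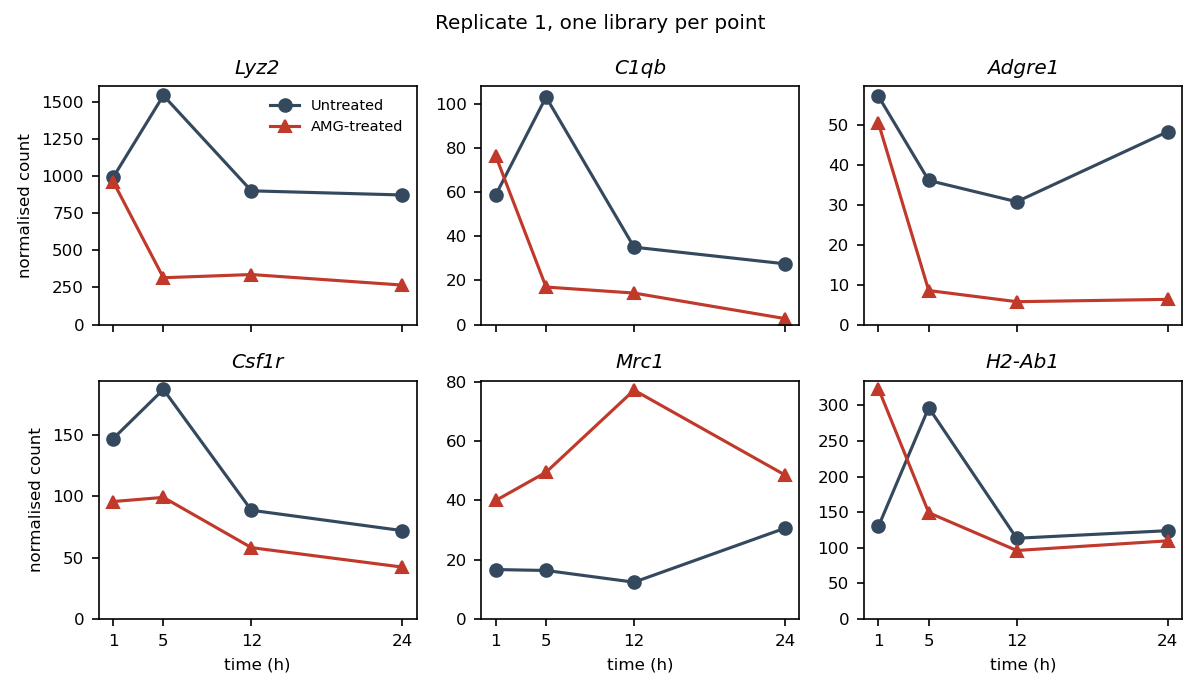
Normalised counts of 6 members in replicate 1 against time in h, with 1 library per point, untreated as circles and AMG-treated as triangles. The curves of Lyz2, C1qb and Adgre1 separate from 5 h on with the treated one below, Mrc1 has the treated curve above at all 4 times, and H2-Ab1 crosses between 1 h and 5 h.

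The 5 h comparison can be set side by side in the 4 replicates. Lyz2 had a log2 ratio of -2.29 in replicate 1, and -0.31, 0.32 and -0.094 in replicates 2, 3 and 4. C1qa had -3.41 in replicate 1, and -0.28, 0.69 and -0.20 in the others. Replicates 1 and 4 both held macrophage transcripts without AMG, yet with AMG they were lower in replicate 1 and near the untreated level in replicate 4. With the length trend removed, the log2 ratios in replicate 4 were -0.56 for Lyz2 and -0.76 for C1qa, and those in replicate 1 were -1.78 and -2.81. This difference between replicates was not tested, since each has 1 library per treatment. An edgeR fit on all 4 replicates with the table as a batch gave a median log2 fold change of -0.31 for the 18 members, with 0 called.

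**Figure D5:**
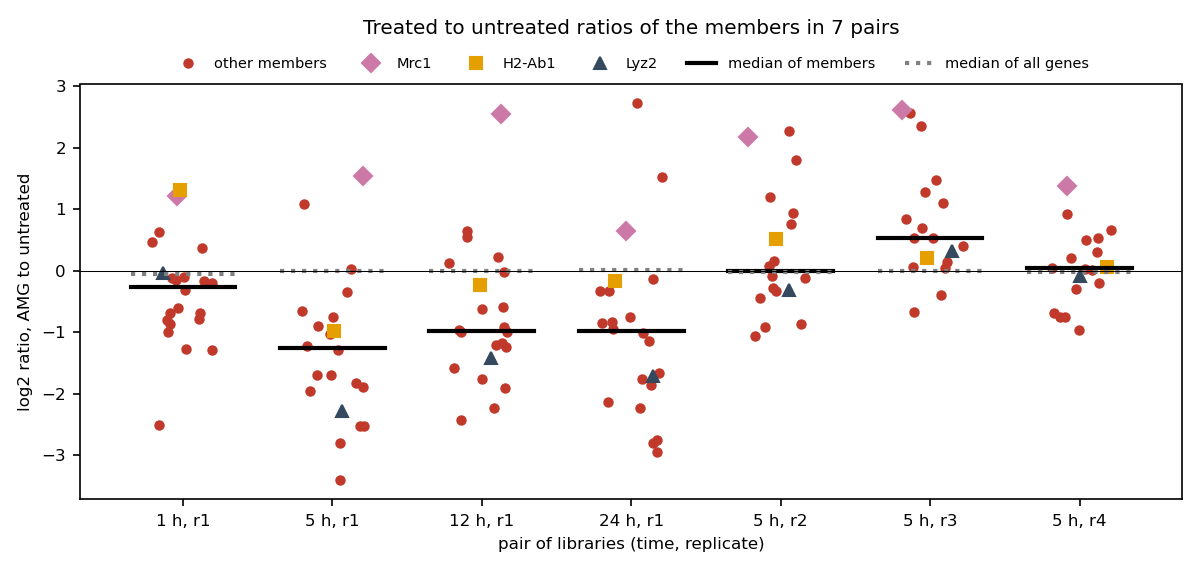
The log2 ratio of AMG to untreated for each member in the 7 pairs of libraries, named by time and replicate, with a black line at the median of the members and a dotted grey line at the median of all genes. The black line lies at -1.26, -0.98 and -0.98 at 5, 12 and 24 h in replicate 1 and at -0.0078, 0.53 and 0.034 in replicates 2, 3 and 4, and the diamonds of Mrc1 lie above 0 in every pair.

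How far the members moved as 1 unit was described by the share of the sum of squares of their centred log2 values that the mean of each library held. In replicates 2 to 4 this share was 61.3% for the 18 members with a mean of at least 10 there. It was 58.9% for the 22 members chosen in replicate 1, 6.16% for the 10 fibroblast markers and 0.0726% for all 13096 genes. In replicate 1 it was 34.7% for the 22 members, 9.42% for the fibroblast markers and 0.0653% for all genes. The share falls as a set of unrelated genes grows, and scaling keeps the mean of all genes nearly level. The values for all genes are thus small by construction and are no background for the members, and no set of matched size was read. The median Pearson r over pairs of genes was 0.81 for the 22 members and 0.44 for the fibroblast markers in replicates 2 to 4. In replicate 1 it was 0.44 and 0.11. Without both libraries of replicate 4 the share of the 18 members was 18.6%. The 3 chains of C1q were at 93.1% in replicates 2 to 4 (median r 0.92) and at 83.0% in replicate 1 (median r 0.86). In replicate 1, Laptm5 and Coro1a were at 88.1% (r 0.83), and Itgam and Itgb2 at 53.8% (r 0.082). Sets of 2 or 3 genes have a high share even when unrelated, so these shares are not on the scale of that of the 22 members.

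Across the 6 libraries of replicates 2 to 4, the Pearson r of each member with the mean of the others was 0.98 for Adgre1, 0.98 for Lyz2, 0.97 for Laptm5, 0.51 for Coro1a, 0.60 for Mrc1 and -0.95 for H2-Ab1. Across the 8 libraries of replicate 1 it was 0.98 for Coro1a, 0.98 for Lyz2, 0.97 for C1qa, -0.36 for Itgb2 and -0.84 for Mrc1. Mrc1 was thus the lowest of the 22 in replicate 1. These values describe 6 and 8 libraries, and much of the spread in the first case lies between replicate 4 and the others. In each case the members were chosen by their mean in the same libraries. In the first, genes such as Adgre1 and Laptm5 reached that mean through replicate 4, so a high r was partly built in. The 10 genes outside the lists with the highest r to the members' mean in replicates 2 to 4 were Pmpca, Tpcn1, Brinp1, Rgmb, Pcdhb15, Dpp7, Atp9b, Stx3, Plekhh3 and Fggy, with r from 0.98 to 1.00. In replicate 1 their r ran from -0.85 (Rgmb) to 0.50 (Fggy), and an r over 0.9 in replicates 2 to 4 was found for 0.985% of all tested genes.

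Other genes of the macrophage pathway were read from a wider list of 52 myeloid genes, of which 17 had a mean of at least 10 at 5 h. None passed the test without the block. With it, 5 rose and 1 fell, a share near the 37.2% of all tested genes called by that fit. Cd14, the coreceptor for bacterial lipopolysaccharide, had 152, 73.8 and 174 normalised counts in untreated replicates 2, 3 and 4 and 565, 307 and 640 with AMG (log2 fold change 1.93, SE 0.41, limma adjusted p = 0.0740 without and 3.2e-05 with the block). All 3 treated values of Cd14 were above all 3 untreated ones. Slc11a1, a metal transporter of phagosomes, was at 1.10, 0 and 12.4 without AMG and at 15.3, 13.9 and 36.1 with AMG (adjusted p = 0.183 and 0.00847 with the block). Plek, Arhgdib and Cyba rose by 1.01, 0.53 and 0.44 on the log2 scale with the block (adjusted p = 0.0202, 0.00340 and 0.0113). The level of Cyba, a chain of the phagocyte oxidase that other cells also express, was 1274 to 2068 normalised counts over these 6 libraries, and that of Arhgdib, an inhibitor of small GTPases, was 1527 to 2439, with no excess in replicate 4. Of the antigen-loading genes, H2-DMa rose by 0.70 on the log2 scale with the block (adjusted p = 0.0112).

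Both ligands of the receptor Csf1r were present. Csf1 had 47451 to 89352 normalised counts at 5 h in replicates 2 to 4 and was not called. Il34 had 356, 59.9 and 282 without AMG and 836, 195 and 1004 with AMG, higher in each pair (log2 fold change 1.58, SE 0.84, limma adjusted p = 0.302 without and 0.000146 with the block). In replicate 1 the log2 ratio of Il34 was 0.15, 1.33, 1.63 and 1.33 at 1, 5, 12 and 24 h, while that of Csf1r was negative at all 4.

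Of 7 cytokine and activation genes that macrophages also express, 2 were tested, and both were called only with the block. Tnf had 0, 0 and 3.79 normalised counts without AMG and 52.2, 3.28 and 40.7 with AMG (limma adjusted p = 0.150 without and 0.00691 with the block). Acod1, the enzyme that makes itaconate in activated macrophages, had 0, 1.39 and 0 without AMG and 45.8, 6.56 and 58.7 with AMG (adjusted p = 0.0830 and 0.00502). After AMG, replicate 3 had the lowest value of both genes. Of the 10 fibroblast markers 7 fell with the block, where 37.2% of all tested genes were called, and 0 without it. These were Col1a1, Col1a2, Col3a1, Pdgfra, Pdgfrb, Lum and Fbn1, with log2 fold changes from -0.73 (Pdgfrb, adjusted p = 0.00213 with the block) to -0.32 (Lum, adjusted p = 0.0481).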

How the data were processed

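Primary mouse tail fibroblasts were profiled by RNA sequencing in 14 libraries, grouped by treatment, time and replicate number as the sample titles gave them. According to the methods of the later paper and the submitters' notes, stranded poly(A) libraries were aligned to mm10 with TopHat2 2.0.13 and uniquely aligned reads were kept. HTSeq 0.5.3p3 counted reads per gene, with FastQC 0.11.5, SAMtools 0.1.19.24 and DESeq also named. The annotation release and strand setting of the counting are not given in the sources used here, so genes that overlap others are uncertain, among them Coro1a, Cd52, Csf1r and H2-Eb1. Unique alignment also leaves near-identical copies uncertain, such as Lyz2 with Lyz1 and the Fcgr genes. The deposited values are a normalised signal: the authors divided read counts by a size factor, separately for replicate 1 (8 libraries) and replicates 2 to 4 (6 libraries). In all libraries 100% of values came out as whole reads (tolerance 0.1) once divided by the smallest step, so depth was known, and the floor of 3 reads was 1.62 to 5.22 normalised counts. There were 0 rows that named no gene, 0 columns of unassigned samples and no columns of the authors' own comparisons.

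The main test was limma 3.58.1 in R 4.3.3 on log2(normalised count + 1), two-sided, with Benjamini-Hochberg adjustment over genes with a mean of at least 10 and a threshold of 0.05. Fold changes on this scale understate those of low genes. An edgeR 4.0.16 quasi-likelihood test on the recovered reads called 135 of 13096 genes, and DESeq2 1.42.0 called 1448. Labels do not say whether replicates came from separate cultures or animals, so p-values measure only the spread between these libraries. Libraries with the same replicate number deviated together from their group means (r = 0.65, 0.76 and 0.70, against -0.59 to 0.12 for other combinations), and the alternative fit took the number as a block. Exact intervals are 95% and cover counting error only, since reads carry no molecular identifiers. Exon lengths came from GENCODE for mm10. Both limma and edgeR were first tested on simulated counts with known changes.

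All 32 members were accounted for, values in every library were given for members with a mean of at least 10 in either table that the results turned on, and from other lists the genes called at 5 h with or without the block were named, with the 10 genes outside all lists that went most closely with the members. The values of 1 called gene of the wider myeloid list are not reported here. The members and lists were chosen with earlier results of these data known. Alternatives were pseudocounts of 0.1 and 10, other filters (a mean of at least 50, or any value above 0), upper quartile scaling, scaling to the fibroblast markers, the block, each library left out, edgeR, DESeq2 and all 4 replicates with the table as batch. Added after the data were seen were the test of the replicate number, the length correction and leaving out both libraries of replicate 4.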

Additional observations from a re-analysis of the deposited data

Results flagged for a closer look

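At 5 h, each of 38 sets of 4 CPM values (1 of 18 members, or the sum over the members, in the untreated or in the AMG-treated libraries) was read for 1 value set apart from the remaining 3 by Dixon's test, and 5 sets had one. Chance flags about 1 in 20 such sets where genes are chosen without regard to these values. That rate does not apply here, because the 18 members were chosen by a mean of at least 10 over replicates 2 to 4. Genes such as Adgre1 and C1qa reached this mean through replicate 4, so a high replicate 4 was built into the search. In the AMG-treated group, replicate 4 stood above the other 3 libraries for Adgre1 (2.30 CPM), Fcgr3 (2.18), C1qa (2.81) and C1qb (3.45). These are the same library and its macrophage transcripts, so they are not 4 separate events. Coro1a stood below the other 3 in AMG-treated replicate 1 (0.255 CPM).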

How the results depend on the processing

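Alternatives left 0 of the tested members called at 5 h, except that the replicate block called 1 (Mrc1) in limma and 1 in edgeR. Leaving out single libraries called 0. The 5 h median moved from 0.22 to 0.57 with scaling to the fibroblast markers, which shifted the median of all genes to 0.47, to -0.31 with all 4 replicates in edgeR, and to between -0.82 and 1.36 when single libraries were left out. In replicate 1 the median at 1 h was 0.17 with the fibroblast scaling (all genes 0.38) and -0.81 with the length correction. At 5 h it was -0.95 with a pseudocount of 10 and -0.95 with a mean of at least 50. At 12 h it was -0.42 with that filter and -0.55 with the fibroblast scaling (all genes 0.46). At 24 h it was -0.66 over all genes above 0 and -0.25 with the fibroblast scaling (all genes 0.77). It was below 0 in 27 of 28 combinations. The share of squares held by library means became 4.68% in replicates 2 to 4 with a mean of at least 50, which left 3 members, 18.6% without both libraries of replicate 4, and 14.7% in replicate 1 over all genes above 0, and ran from 56.7% to 65.2% and from 29.8% to 38.5% without single libraries. The replicate number was called in 3 of 4 members with a mean of at least 50. The cause of these moves was not tested, and no other member's call changed with the replicate block.

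No member's log2 fold change at 5 h was called without the block, and 70 of 307 values under alternatives had the opposite sign, in 16 of 18 members. Mrc1 and Fcer1g had none. With a pseudocount of 10 these were Laptm5 -0.058, Itgb2 -0.016 and Mpeg1 -0.0025, and with 0.1 Adgre1 0.068 and Tyrobp -0.47. With edgeR they were Laptm5 -0.33, Itgb2 -0.43, Fcgr3 0.22, C1qa -0.19 and Mpeg1 -0.80, and with edgeR and the block Laptm5 -0.17, Itgb2 -0.14, Fcgr3 0.056, C1qa -0.018 and Mpeg1 -0.29. DESeq2 gave Laptm5 -0.28, Itgb2 -0.40, Fcgr3 0.23 and C1qa -0.15. All 4 replicates gave Laptm5 -0.68, Coro1a -0.19, Itgb2 -0.41, Tyrobp -0.24, C1qa -0.92, C1qb -0.20 and Mpeg1 -0.93. Scaling to the fibroblast markers gave Csf1r 0.11, Adgre1 0.36, Fcgr3 0.22, Trem2 0.37, Lyz2 0.46 and Ctss 0.16. Without both libraries of replicate 4, Adgre1 was 0.34 and Lyz2 0.0036. When single libraries were left out, the values ran from -1.13 to 1.40 for Laptm5, -0.78 to 1.31 for Itgb2, -0.62 to 0.029 for Csf1r, -1.27 to 1.58 for Adgre1, -1.07 to 0.28 for Fcgr3, -1.29 to 1.14 for Trem2, -1.29 to 1.57 for Tyrobp, -1.05 to 1.33 for C1qa, -1.23 to 1.70 for C1qc, -0.59 to 1.20 for H2-Ab1, -0.17 to 1.01 for Cd68, -1.04 to 1.02 for Lyz2, -1.39 to 0.71 for Ctss and -0.35 to 2.74 for Mpeg1. The 10 members below a mean of 10 in both tables were left out of the main tests of treatment and of replicate number. The depth limits what differences could be seen in them.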

Other observations

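Interferon-stimulated genes, which macrophages and fibroblasts both induce, summed to 594 CPM over 16 genes in the AMG-treated library of replicate 1 at 12 h. They summed to 207 CPM in AMG-treated replicate 1 at 1 h, 179 in untreated replicate 1 at 24 h, 144 in AMG-treated replicate 1 at 24 h, 144 in AMG-treated replicate 4 at 5 h, and 54.8 to 105 in the other 9 libraries. Isg15, a ubiquitin-like protein, had 15.4, 23.7 and 17.3 normalised counts in untreated replicates 2, 3 and 4 at 5 h and 31.8, 30.3 and 230 with AMG. In replicate 1, it had 43.9 without and 931 with AMG at 12 h, and 142 without and 107 with AMG at 24 h. Of 12 tested interferon genes 0 were called without the block, while with it 4 rose (Isg15, Oasl2, Cxcl10 and Gbp2) and 2 fell (Ifit2 and Irf1), beside 37.2% of all tested genes called by that fit. The log2 fold changes were 1.67, 2.03, 3.32 and 1.93 for the first 4 and -0.68 and -0.58 for the other two. Gbp2, a GTPase that acts on vacuoles of pathogens, had 230, 129 and 103 without AMG and 772, 343 and 656 with AMG (limma adjusted p = 0.0721 without and 0.000350 with the block).

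Fibroblast genes also separated the replicate numbers. Lum, a proteoglycan of collagen fibrils, had 6374, 333 and 1539 normalised counts in untreated replicates 2, 3 and 4 and 5340, 219 and 1423 with AMG (limma adjusted p = 8.9e-06 for the replicate number). Thy1, a surface glycoprotein of fibroblasts, had 1339, 14712 and 1068 without AMG and 1723, 14412 and 1473 with AMG. Tek, the angiopoietin receptor of endothelial cells, was at 17.6, 226 and 8.65 without AMG and at 3.82, 109.9 and 0 with AMG (limma adjusted p = 0.534 without and 0.0103 with the block). Trp63, a factor of basal keratinocytes, was at 28.6, 8.35 and 41.6 without AMG and at 5.09, 0 and 2.26 with AMG (adjusted p = 0.129 without and 0.00377 with the block). Acta1, the actin of skeletal muscle, was at 2893, 7289 and 6894 without AMG and at 1735, 5490 and 4541 with AMG (adjusted p = 0.526 without and 0.00207 with the block). Among replicates 2 to 4, those with the highest Thy1 and the highest Lum were thus not the one with macrophage transcripts.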
